A study of Mus musculus with 10 samples.

Results

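The genes described here are 48 that build, grow and supply the axon: tubulins, stathmins, microtubule-associated proteins, neurofilaments, growth cone proteins, motor proteins, and actin with proteins that bind it. They were taken by symbol from a list of these families that uses no measured value, although it was written with earlier results of these data known. All 48 were found among the 26411 genes measured after surgery and among the 55886 genes measured after injection. All 48 also passed the expression filter in both experiments, among 14672 and 16139 genes tested. RNA came from mouse trigeminal ganglion, the cluster of sensory neuron cell bodies that serves the face. In the surgery experiment, 3 libraries came from mice at 10 days after the operation that the labels call pIONT and 3 from mice at 10 days after sham surgery. In the injection experiment, 2 libraries came from mice at 6 hours after an injection of UCN1 (urocortin 1, a peptide of the corticotropin-releasing factor family) into the ganglion, and 2 from mice that received PBS (phosphate-buffered saline) in the same way. The labels give no strain, sex, age, dose or number of animals per library for any group. Levels are in FPKM, reads scaled to gene length and library depth, as the authors deposited them. Levels were not compared between the experiments, for whose tables gene length was taken differently.

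A sensory axon is held open by microtubules, hollow tubes of paired α- and β-tubulin along which motor proteins carry cargo, kinesins mostly outward and dynein inward. Neurofilaments set the calibre of large axons, and actin filaments drive the growth cone, the motile tip of a growing axon. After a peripheral nerve is cut, sensory neurons are known for making more tubulin and growth-associated protein and less neurofilament protein while they regrow. Whole ganglia were sequenced, so fewer cells of a type and less RNA per cell cannot be told apart.

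A gene was called when its Benjamini-Hochberg adjusted p, over all genes tested with limma, was below 0.05. Log2 fold changes are pIONT over sham or UCN1 over PBS on the log2(FPKM + 0.5) scale, with their standard error (SE). The libraries held 24.2 to 29.7 M reads (M is 1e6) in genes in the surgery experiment and 15.7 to 17.1 M in the injection experiment. Between 106.5 reads (Flnc) and 177633 reads (Nefm) fell on each of these genes per library of the surgery experiment. Neuron markers were high in every library, with a summed level of 8 markers of 2084 to 2142 FPKM after pIONT and 1855 to 1984 FPKM after sham surgery. They did not move one way: Elavl3, Thy1 and Uchl1 were called higher, Snap25 and Rbfox3 lower (log2 fold changes -0.59 and -0.35), and the median of the 8 was -0.13. More than any other marker, Uchl1 makes up the sum (1346 FPKM after pIONT and 1156 FPKM after sham surgery), and its call was kept in 4 of 14 alternatives. Marker sums of other cells set some libraries apart. The macrophage sum over 6 markers was 330.1, 753.8 and 293.3 FPKM in pIONT 1 to 3, against 251.0, 138.4 and 170.9 FPKM in sham 1 to 3, and pIONT 2 stood highest. The pituitary sum over 3 markers was 129.0, 114.7 and 126.6 FPKM in pIONT 1 to 3, against 751.9, 79.6 and 253.4 FPKM in sham 1 to 3, and sham 1 stood highest.

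After pIONT, 22 of the 48 genes rose, 11 fell and 15 were not called. Over all genes tested, 10.5% were called higher and 12.3% lower. The median log2 fold change of the 48 genes was 0.15, against -0.02 over all genes, and single values ran from -0.48 (Tuba4a) to 2.89 (Tubb6). Rises were called in 6 of 8 tubulins, 3 of 4 stathmins, 2 of 3 collapsin response mediators, 3 of 3 growth cone membrane proteins, 7 of 8 actin-related genes and 1 of 5 intermediate filament genes (Prph). Falls were called in 3 of 5 intermediate filament genes, 4 of 9 kinesins, 2 of 5 microtubule-associated proteins, 1 of 3 dynein and dynactin genes (Dync1i1) and 1 of 8 tubulins (Tuba4a). All 3 pIONT libraries lay above or below all 3 sham libraries in 35 of the 48 genes, 23 above and 12 below, and the same held for 43.4% of all genes tested. Most of the called changes were small: 20 of the 33 called genes changed by less than 0.5 on the log2 scale, and 6 changed by at least 1. Of the 33 calls, 19 were kept under every alternative processing tried, 16 of them rises and 3 of them falls. Without both sham 1 and pIONT 2, a comparison chosen after seeing the data, 17 genes rose and 7 fell. The count of genes that fell was also 7 without sham 1 alone, 6 without sham 2 and 4 without sham 3. Values per library follow for the genes with the largest changes and for the most highly expressed genes of each family. Further genes given with values were chosen after their values were seen.

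**Figure D1:**
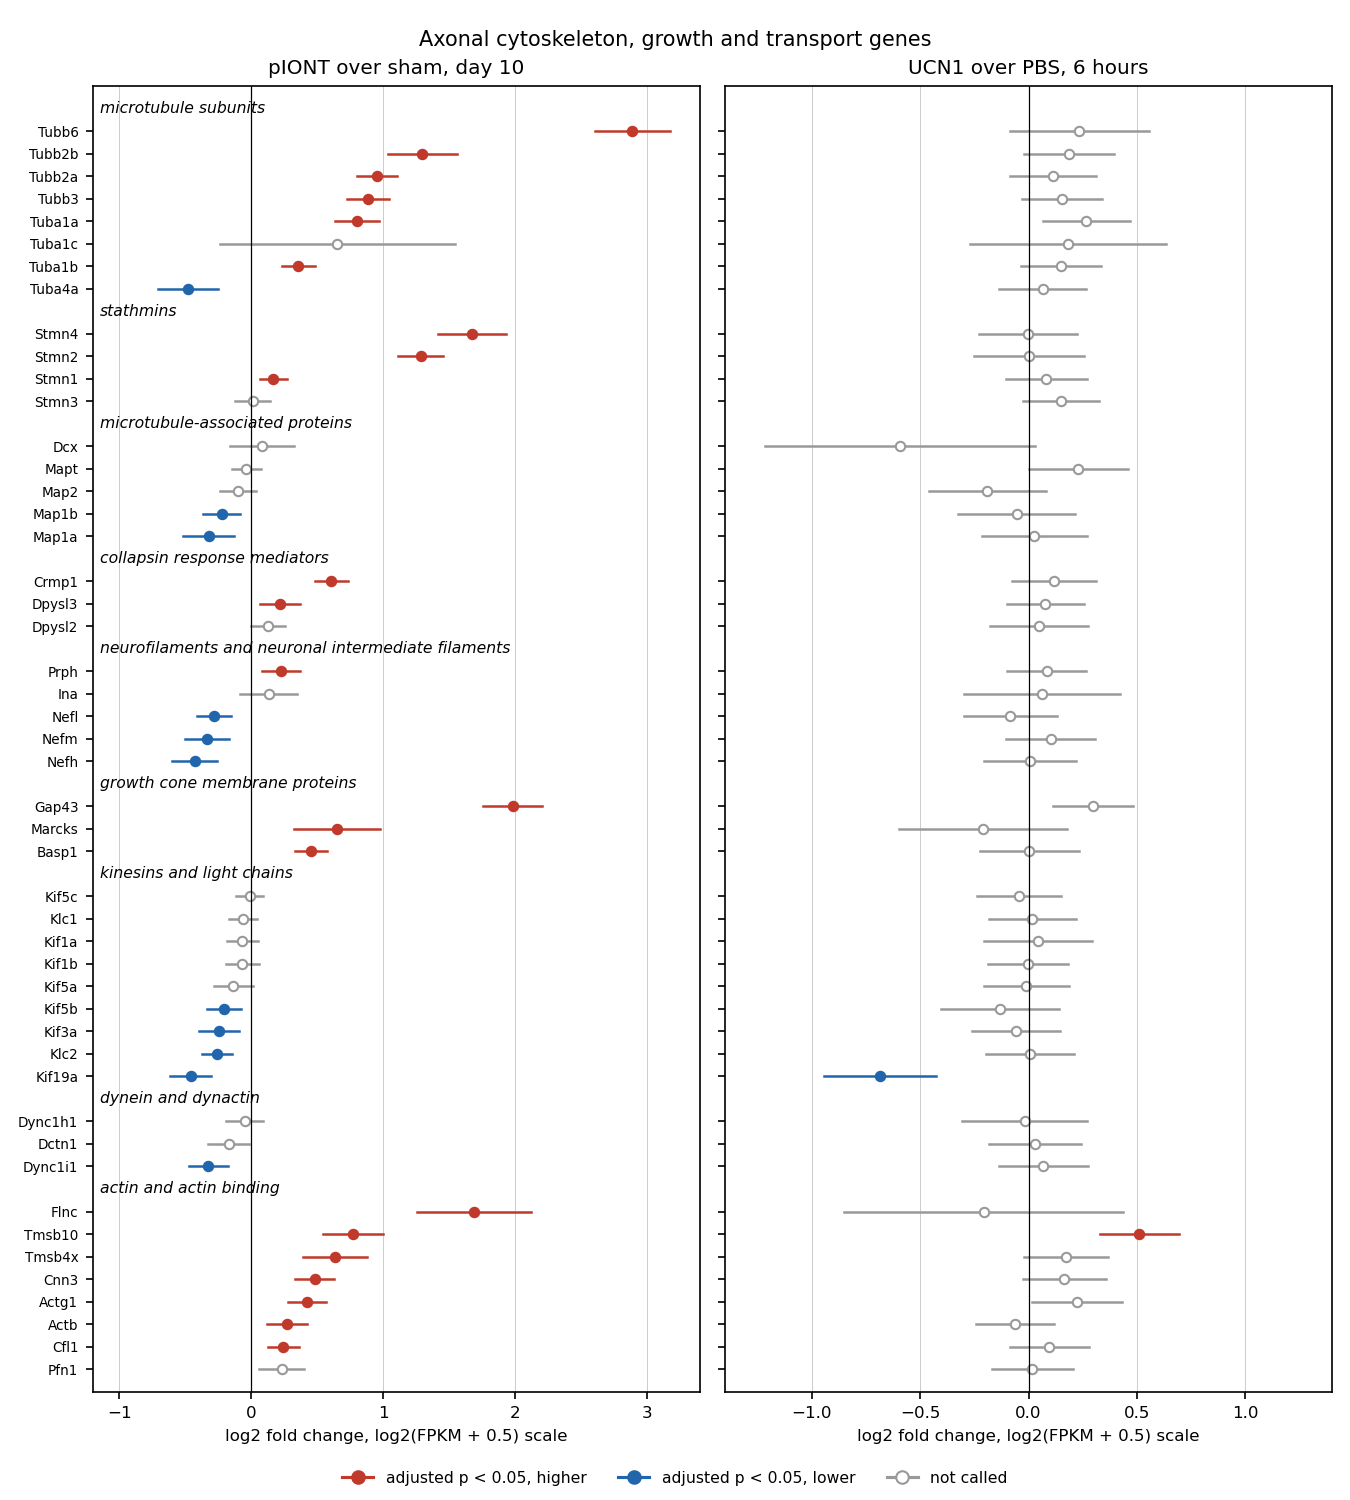
Log2 fold change of each of the 48 genes (points) with its 95% confidence interval (lines), grouped by role, for pIONT over sham on the left and UCN1 over PBS on the right. Filled points passed the adjusted p of 0.05. After pIONT the values run from -0.48 to 2.89 with 22 genes higher and 11 lower, and after UCN1 1 gene is higher and 1 lower. The horizontal scales of the panels differ.

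Tubulins showed the largest single change. Of the 8 α- and β-tubulin genes 6 rose, 1 fell and 1 was not called, and their median log2 fold change was 0.84. Tubb6, a β-tubulin present in many non-neuronal cells as well, stood at 62.1, 67.2 and 52.1 FPKM in pIONT 1 to 3, against 6.92, 8.96 and 7.32 FPKM in sham 1 to 3 (log2 fold change 2.89, SE 0.12, adjusted p = 2.92e-05). Its lowest pIONT library was well above its highest sham library, and the means differed 7.82-fold. Tubb2b, a β-tubulin of developing neurons, had 253, 279.5 and 218 FPKM in the pIONT libraries and 99.8, 113 and 91.0 FPKM in the sham libraries (log2 fold change 1.30, SE 0.11, adjusted p = 0.000588). Tubb2a had 746, 742 and 687 FPKM in pIONT 1 to 3, against 357, 403 and 363 FPKM in sham 1 to 3 (log2 fold change 0.95, SE 0.06, adjusted p = 0.000233). Tubb3, the β-tubulin used to mark neurons, was the most abundant of the 8 at 2193, 2255 and 2000.5 FPKM in the pIONT libraries and 1125, 1202 and 1159.5 FPKM in the sham libraries (log2 fold change 0.89, SE 0.07, adjusted p = 0.000358). For each of these β-tubulins the groups did not overlap.

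Among the α-tubulins, Tuba1a, the main form of growing axons, reached 1972, 1976 and 1778 FPKM in pIONT 1 to 3, against 1120.4, 1025 and 1136 FPKM in sham 1 to 3 (log2 fold change 0.80, SE 0.07, adjusted p = 0.000745). Tuba1b, made in most cell types, rose less, with 752, 795 and 739 FPKM in the pIONT libraries and 586, 617 and 583 FPKM in the sham libraries (log2 fold change 0.36, SE 0.05, adjusted p = 0.00537). Tuba4a, an α-tubulin found in mature neurons and muscle, fell, with 60.2, 67.5 and 80.3 FPKM in pIONT 1 to 3, against 93.6, 96.6 and 98.4 FPKM in sham 1 to 3 (log2 fold change -0.48, SE 0.10, adjusted p = 0.015). The groups did not overlap for any of these 3 genes, and the call of Tuba4a was lost without sham 3 (adjusted p = 0.06), and also without both sham 1 and pIONT 2 (adjusted p = 0.086). Tuba1c varied most between sham libraries, with 49.5, 83.6 and 66.5 FPKM in the pIONT libraries and 34.3, 75.8 and 26.9 FPKM in the sham libraries, so that the groups overlapped and the difference was not called (adjusted p = 0.254). Without sham 2 it was called higher (log2 fold change 1.09, adjusted p = 0.0279). Of the exon bases of Tuba4a, 37.3% overlap Stk16 on the opposite strand (build GRCm38), and the sources used here do not say if reads were assigned by strand.

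Some of these genes are near copies of each other, which bears on how reads were shared between them. The last 60 coding bases of the transcripts (GENCODE vM21, GRCm38, 5′ to 3′) show this for a β-tubulin pair on chromosome 13. Capitals mark the bases that differ within the pair.
Tubb2a: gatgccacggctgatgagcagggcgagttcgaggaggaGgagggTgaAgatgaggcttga
Tubb2b: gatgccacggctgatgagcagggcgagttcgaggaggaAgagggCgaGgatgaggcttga
Over the whole coding sequence Tubb2a and Tubb2b are 96.5% identical, with 47 differing bases in 1338. Of all 50-base windows of the transcript, 49.6% in Tubb2a, 39.3% in Tubb2b, 72.9% in Tuba1a, 73.8% in Tuba1b and 61.0% in Tuba1c also occur in a transcript of another gene. The levels of these 5 genes are therefore uncertain as single genes. No such window was found for Tubb3 or Tubb6.

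The make-up of the summed tubulin level differed between the groups as well as its size. For these sums Tubb5, Tubb4b, Tubb4a and Tuba8, which are outside the 48 genes, were added, so that every α- and β-tubulin that passed the filter is included. The 7 β-tubulins summed to 4285 ± 218 FPKM after pIONT and 2579 ± 115 FPKM after sham surgery (SD, n = 3 each). Tubb3 made up 50.1 ± 0.65% of that sum after pIONT and 45.1 ± 0.61% after sham surgery, and Tubb2a made up 16.9 ± 0.16% and 14.5 ± 0.34%. Tubb6 held 1.41 ± 0.11% after pIONT and 0.299 ± 0.028% after sham surgery. The share of Tubb4b was lower, at 8.80 ± 0.43% after pIONT and 14.5 ± 0.14% after sham surgery, and its level was 377 ± 2.36 FPKM after pIONT and 373 ± 17.0 FPKM after sham surgery (not called, adjusted p = 0.866). The 5 α-tubulins summed to 2808 ± 131 FPKM after pIONT and 1832 ± 14.8 FPKM after sham surgery. Within them Tuba1a held 68.0 ± 1.5% after pIONT and 59.7 ± 2.8% after sham surgery, and Tuba4a held 2.48 ± 0.47% and 5.25 ± 0.13%. There was no overlap between pIONT and sham libraries in the shares of Tubb3, Tubb2a, Tubb6, Tubb4b, Tuba1a or Tuba4a. These shares were not tested apart from the genes that make them up.

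**Figure D2:**
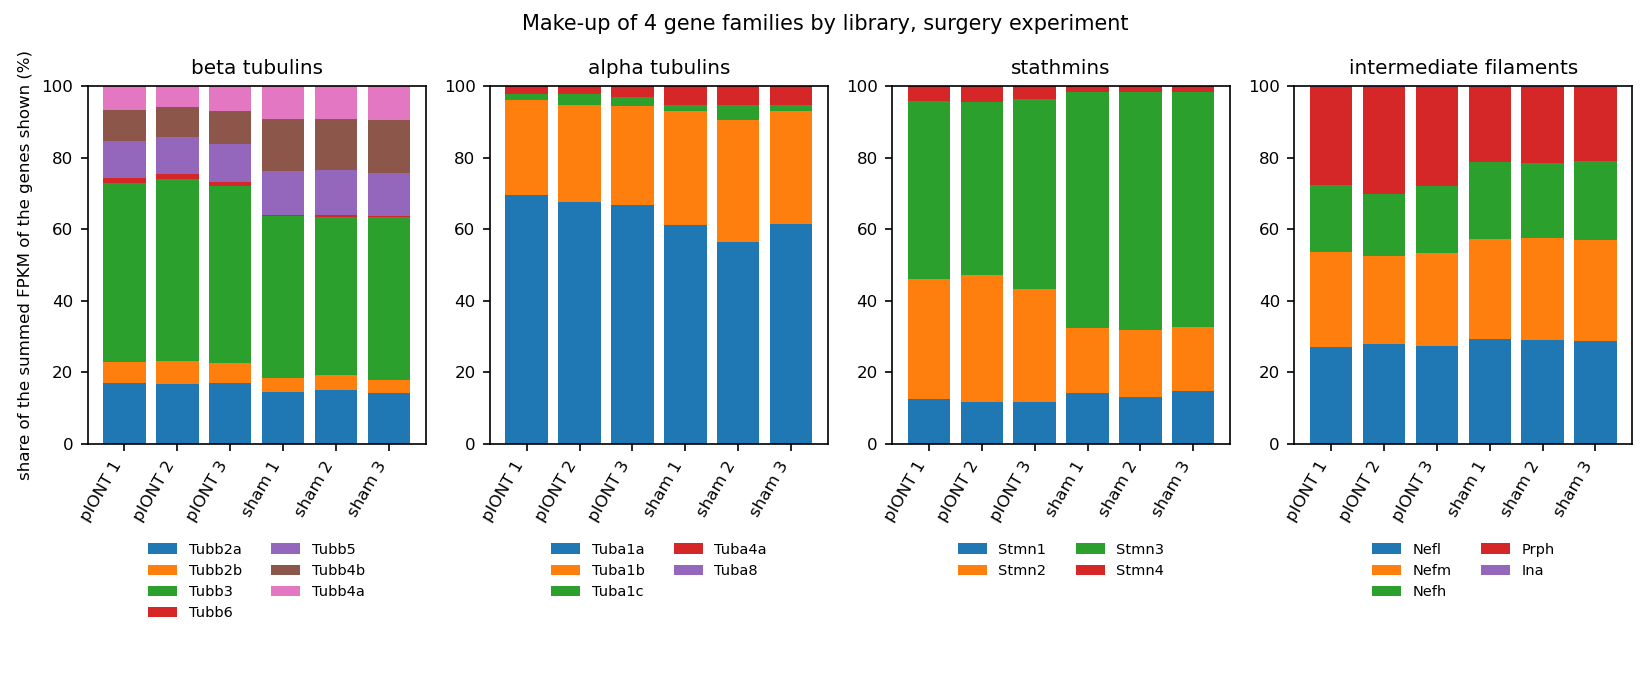
Share of each gene in the summed FPKM of the genes shown for its family (vertical axis, %) in each pIONT and sham library, for β-tubulins, α-tubulins, stathmins and neuronal intermediate filaments. After pIONT the Stmn2 segment covers 33.6% on average against 18.2% in sham libraries, and the Prph segment covers 28.4% against 21.1%.

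Promoter sequences from RefSeq (GRCm38.p6) were at hand for 30 of the 48 genes, 13 that rose, 5 that fell and 12 not called. The genes with none were Tubb2b, Tubb6, Stmn1, Stmn2, Stmn4, Mapt, Dpysl2, Dpysl3, Nefl, Nefm, Nefh, Gap43, Marcks, Kif5a, Kif5b, Kif19a, Klc2 and Actb. The 250 bases before each start were searched on both strands. Some genes have more than 1 promoter, and a gene was counted when any of its promoters held the motif. The GC box GGGCGG was found for 12 of the 13 genes that rose, 4 of the 5 that fell and 6 of the 12 not called. Over all 27018 genes with a promoter sequence the share was 35.4%. These 27018 genes were not limited to genes that passed the expression filter, as the 30 did, so the shares over all genes are not a matched reference. CCAAT was found for 6, 2 and 3 of these genes, against 37.5% of all, and the TATA box TATAAA for 2, 1 and 2, against 14.3% of all. The AP-1 site TGANTCA, found for 7.8% of all genes, and the STAT site TTCNNNGAA, found for 8.1%, were found for none of the 30 genes. The cAMP response element TGACGTCA, found for 1.8% of all genes, was found for 1 gene that rose (Tubb2a), none that fell and 2 not called (Kif5c and Klc1). The 250 bases of Tubb2a are shown because that element, a TATA box and GC boxes lie close together in a gene that rose, at chr13:34078009-34078258 on the minus strand. Capitals mark, in order, a GC box on the other strand 81 bases before the start, the response element 59 bases before it, a GC box 43 bases before it and the TATA box 29 bases before it.
Tubb2a: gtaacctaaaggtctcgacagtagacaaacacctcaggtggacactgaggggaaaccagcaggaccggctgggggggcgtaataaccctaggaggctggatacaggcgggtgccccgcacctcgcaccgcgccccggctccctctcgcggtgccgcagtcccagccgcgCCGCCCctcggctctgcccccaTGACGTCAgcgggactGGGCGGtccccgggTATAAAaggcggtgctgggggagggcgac
A match is a description of the letters and not a measured binding site.

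Stathmins bind free tubulin and promote the loss of microtubules, and Stmn2 is an injury-responsive growth cone protein. Of the 4 genes 3 rose and 1 was not called. Stmn4 had 55.8, 63.5 and 47.7 FPKM in pIONT 1 to 3, against 18.1, 17.5 and 15.5 FPKM in sham 1 to 3 (log2 fold change 1.67, SE 0.11, adjusted p = 0.000186). Stmn2 had 444, 499.7 and 427 FPKM in the pIONT libraries and 183, 199 and 179 FPKM in the sham libraries (log2 fold change 1.28, SE 0.07, adjusted p = 0.000106). Both were higher in every pIONT library than in any sham library. Stmn3, the most abundant of the family, had 654, 681 and 719 FPKM in pIONT 1 to 3, against 668, 705 and 663 FPKM in sham 1 to 3, with overlapping groups and no call (log2 fold change 0.01, adjusted p = 0.91). Stmn1 had 164, 163 and 156 FPKM in the pIONT libraries and 143, 139 and 148 FPKM in the sham libraries (log2 fold change 0.17, SE 0.04, adjusted p = 0.0347). Its groups did not overlap, but the call was lost without sham 1, sham 2, sham 3, pIONT 1 or pIONT 2 (adjusted p = 0.0706 to 0.114), and also without a filter on low values, with TPM scaling, with a replicate block or without both sham 1 and pIONT 2 (adjusted p = 0.0712 to 0.148), and 36.5% of its 50-base windows occur in other genes. The summed level of the 4 genes was 1358 ± 45.0 FPKM after pIONT and 1026 ± 30.4 FPKM after sham surgery. Stmn2 made up 33.6 ± 1.9% of it after pIONT and 18.2 ± 0.50% after sham surgery, and Stmn3 made up 50.4 ± 2.5% and 66.1 ± 0.26%.

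Microtubule-associated proteins bind along the tubes and stabilise or space them. None of the 5 genes rose, 2 fell and 3 were not called, with a median log2 fold change of -0.10. Map1a had 133, 108 and 129.8 FPKM in pIONT 1 to 3, against 150.3, 152 and 159.7 FPKM in sham 1 to 3 (log2 fold change -0.32, SE 0.08, adjusted p = 0.032). Map1b had 255, 227 and 257 FPKM in the pIONT libraries and 278, 292 and 292 FPKM in the sham libraries (log2 fold change -0.22, SE 0.06, adjusted p = 0.0362). Both were lower in all pIONT libraries than in all sham libraries. The call of Map1a was lost without sham 1, sham 2 or sham 3 (adjusted p = 0.0704 to 0.108), and also without a filter on low values (adjusted p = 0.0652). That of Map1b was lost without sham 1, sham 2, sham 3 or pIONT 1 (adjusted p = 0.055 to 0.121), and also without a filter on low values, with median-of-ratios scaling, with a replicate block or without both sham 1 and pIONT 2 (adjusted p = 0.0571 to 0.0913). Map2, a protein of dendrites and cell bodies, had a log2 fold change of -0.10 (adjusted p = 0.253) and Mapt, which encodes the axonal protein tau, -0.04 (adjusted p = 0.606), both with overlapping groups. Dcx, a protein of migrating young neurons, was close to the filter at 0.44 to 0.60 FPKM and was not called (adjusted p = 0.615).

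Collapsin response mediator proteins carry tubulin and relay guidance signals in the growth cone. Crmp1 had 24.5, 25.1 and 22.4 FPKM in pIONT 1 to 3, against 15.2, 15.5 and 15.9 FPKM in sham 1 to 3 (log2 fold change 0.61, SE 0.05, adjusted p = 0.000662), with no overlap. Dpysl3 had 116, 118 and 114 FPKM in the pIONT libraries and 93.1, 109 and 97.4 FPKM in the sham libraries (log2 fold change 0.22, SE 0.06, adjusted p = 0.0471), and its call was lost without sham 1, sham 3, pIONT 1, pIONT 2 or pIONT 3 (adjusted p = 0.0818 to 0.145), and also without a filter on low values, with TPM scaling, with a replicate block or without both sham 1 and pIONT 2 (adjusted p = 0.0681 to 0.205). Dpysl2, the form best known for tubulin transport, had 47.4, 51.9 and 51.4 FPKM in pIONT 1 to 3, against 44.0, 45.8 and 48.4 FPKM in sham 1 to 3, overlapped between the groups and was not called (log2 fold change 0.12, adjusted p = 0.147).

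The growth cone membrane proteins Gap43, Basp1 and Marcks, which lie under the plasma membrane and act on actin, all rose. Gap43 (growth-associated protein, chr16:42248442-42340651 in GRCm38, minus strand) had 417, 497 and 380.5 FPKM in pIONT 1 to 3, against 107, 113 and 105 FPKM in sham 1 to 3 (log2 fold change 1.98, SE 0.09, adjusted p = 5.5e-05). Its pIONT libraries ran between 380.5 and 496.7 FPKM, all above the sham libraries, and the means differed 3.98-fold. Basp1 had 167, 156 and 153 FPKM in the pIONT libraries and 112, 121 and 114 FPKM in the sham libraries (log2 fold change 0.45, SE 0.05, adjusted p = 0.00208). Marcks had 38.5, 53.0 and 35.5 FPKM in pIONT 1 to 3, against 27.6, 25.6 and 25.9 FPKM in sham 1 to 3 (log2 fold change 0.65, SE 0.14, adjusted p = 0.017). It was highest in pIONT 2, the library with the highest macrophage marker sum, and its call was lost without sham 2 or sham 3 (adjusted p = 0.0532 to 0.0628). The share of macrophages in this difference was not tested. For all 3 genes the groups did not overlap.

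**Figure D3:**
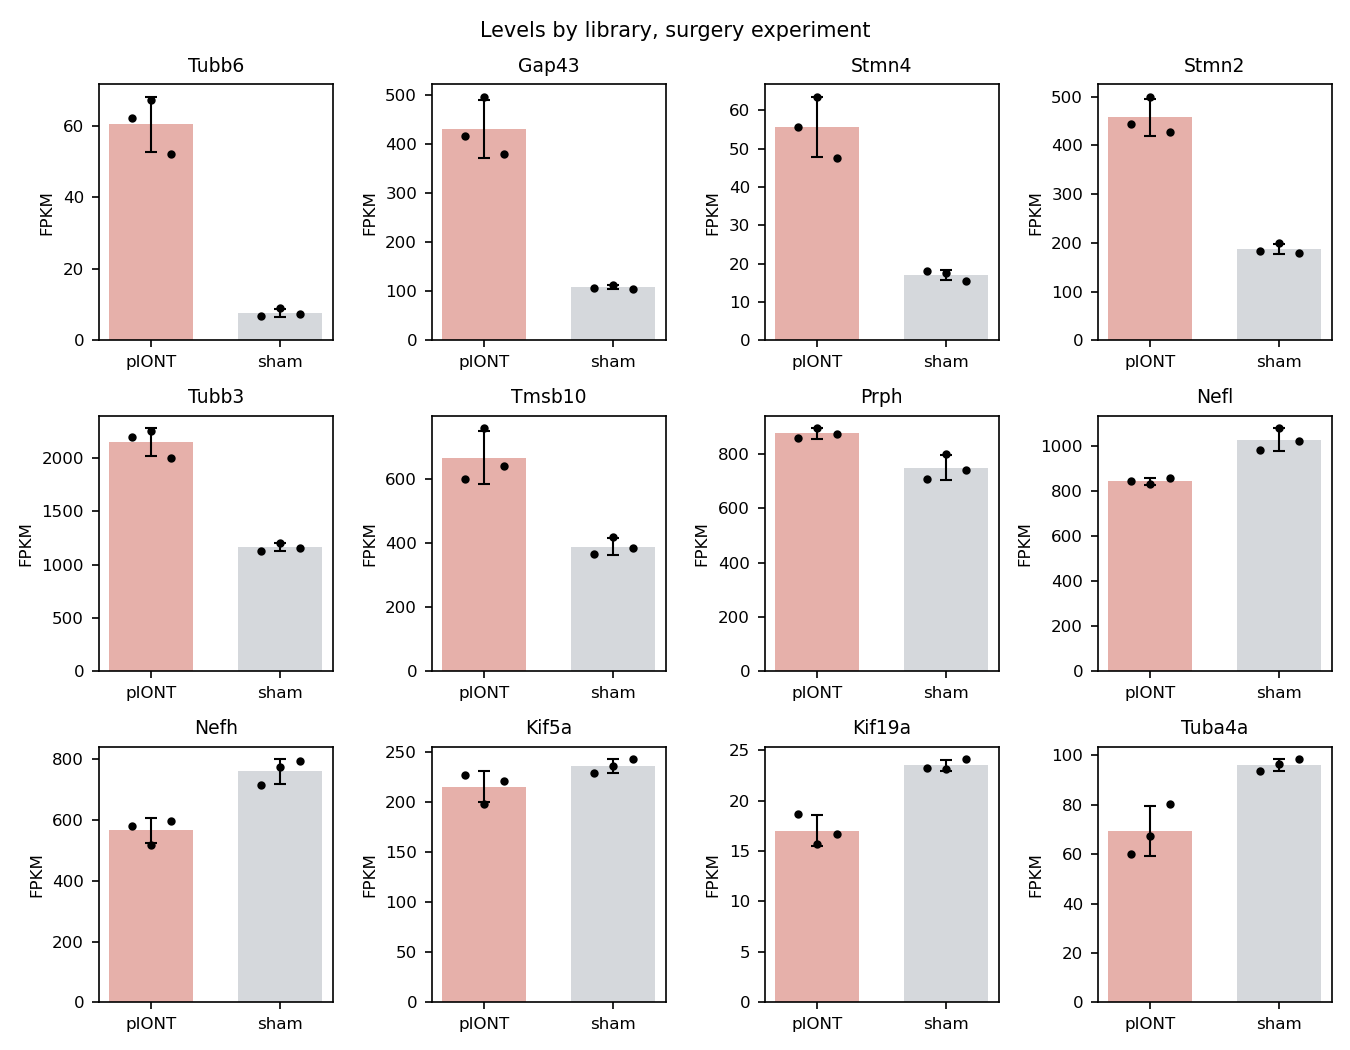
FPKM (vertical axes, from 0) of 12 genes in the surgery experiment, with bars for the mean of 3 libraries per group, error bars for the SD and points for single libraries. Tubb6, Gap43, Stmn4 and Stmn2 are more than 2 times as high in pIONT as in sham libraries, Prph is slightly higher, and Nefl, Nefh, Kif19a and Tuba4a are lower.

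Intermediate filament genes moved in both directions: of the 5 genes 3 fell, 1 rose and 1 was not called. The genes that fell were the neurofilament triplet, whose light, medium and heavy chains form the filaments of large axons. Nefl, the light chain, had 842, 828 and 859 FPKM in pIONT 1 to 3, against 980.4, 1079.5 and 1018 FPKM in sham 1 to 3 (log2 fold change -0.28, SE 0.06, adjusted p = 0.0132). Nefm, the medium chain, had 823, 737 and 823 FPKM in the pIONT libraries and 938, 1064 and 1007 FPKM in the sham libraries (log2 fold change -0.34, SE 0.07, adjusted p = 0.0178). Nefh, the heavy chain, had 579.7, 518 and 597 FPKM in pIONT 1 to 3, against 714, 773 and 792 FPKM in sham 1 to 3 (log2 fold change -0.43, SE 0.07, adjusted p = 0.00808). Each was lower in every pIONT library than in any sham library. The call of Nefl was lost without sham 3 (adjusted p = 0.0611), and also without a filter on low values or with a replicate block (adjusted p = 0.0543 to 0.134). That of Nefm was lost without sham 2 or sham 3 (adjusted p = 0.0579 to 0.0739), and also without a filter on low values or with a replicate block (adjusted p = 0.0628 to 0.109). Nefl and Nefm overlap on opposite strands of chromosome 14 (32.8% of the bases of Nefl and 19.2% of those of Nefm), and reads there cannot be told apart without strand.

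Prph, which encodes peripherin, the filament protein of small and regrowing sensory axons, moved the other way, with 858, 896 and 872 FPKM in the pIONT libraries and 708, 798 and 742 FPKM in the sham libraries (log2 fold change 0.23, SE 0.06, adjusted p = 0.0354). The groups did not overlap, but the call was lost without sham 1, sham 3, pIONT 1, pIONT 2 or pIONT 3 (adjusted p = 0.0635 to 0.127), and also without a filter on low values, with TPM scaling, with a replicate block or without both sham 1 and pIONT 2 (adjusted p = 0.0545 to 0.205). Per library, the ratio of Prph to Nefh was 1.48, 1.73 and 1.46 in pIONT 1 to 3, against 0.992, 1.03 and 0.937 in sham 1 to 3. The order of this ratio follows from Prph being higher and Nefh lower in every pIONT library. The triplet summed to 2202 ± 104 FPKM after pIONT and 2789 ± 144 FPKM after sham surgery. Its make-up moved little, with Nefl at 38.3 ± 1.2% of the sum after pIONT and 36.8 ± 0.58% after sham surgery, Nefm at 36.1 ± 0.65% and 36.0 ± 0.46%, and Nefh at 25.6 ± 0.68% and 27.2 ± 0.81%. Ina, which encodes α-internexin, was low at 5.48 to 7.07 FPKM in all libraries and was not called (adjusted p = 0.335). Markers of myelinating Schwann cells, which wrap the same large axons, moved with the triplet: 4 of 5 fell, and their summed level was 3814 to 4111 FPKM after pIONT and 4531 to 5062 FPKM after sham surgery. Their part in the change of the triplet was not tested.

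Kinesins and their light chains, which move cargo toward the axon tip, had log2 fold changes below 0 in 9 of 9 genes, of which 4 passed the test and none rose. Over all genes 45.0% of values were above 0. Klc1, a light chain and the most abundant of the 9, had 259, 251 and 252 FPKM in pIONT 1 to 3, against 253, 273 and 269.6 FPKM in sham 1 to 3, overlapped and was not called (log2 fold change -0.06, adjusted p = 0.375). Kif5a, the neuronal heavy chain of kinesin-1, had 228, 198 and 221 FPKM in the pIONT libraries and 229, 237 and 244 FPKM in the sham libraries. All its pIONT libraries were below all its sham libraries, yet the difference was not called (log2 fold change -0.14, adjusted p = 0.158).

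Kif19a, a kinesin that shortens microtubules in cilia, fell, with 18.7, 15.6 and 16.6 FPKM in pIONT 1 to 3, against 23.2, 23.1 and 24.1 FPKM in sham 1 to 3 (log2 fold change -0.46, SE 0.07, adjusted p = 0.005), and this call was kept under every alternative. Klc2, another light chain, fell too (log2 fold change -0.26, adjusted p = 0.0118), a call lost without sham 3 (adjusted p = 0.0544). Kif3a, a subunit of heterotrimeric kinesin-2, and Kif5b, the kinesin-1 heavy chain of most cell types, fell by less (log2 fold changes -0.24 and -0.21, adjusted p = 0.0359 and 0.0372). The call of Kif3a was lost without sham 1, sham 2, sham 3 or pIONT 1 (adjusted p = 0.0546 to 0.105), and also without a filter on low values, with median-of-ratios scaling, with a replicate block or without both sham 1 and pIONT 2 (adjusted p = 0.0582 to 0.0814). That of Kif5b was lost without sham 1, sham 2, pIONT 1 or pIONT 2 (adjusted p = 0.0939 to 0.112), and also without a filter on low values, with median-of-ratios scaling, with a replicate block or without both sham 1 and pIONT 2 (adjusted p = 0.0546 to 0.198). Kif5c, Kif1a and Kif1b had log2 fold changes of -0.01, -0.07 and -0.07 and were not called. With median-of-ratios scaling the value of Kif5c turned to 0.00896. The ratio of Kif5a to Tubb3, a motor to a subunit of its track, was 0.104, 0.0879 and 0.111 in pIONT 1 to 3, against 0.204, 0.197 and 0.210 in sham 1 to 3. That it was lower in every pIONT library follows from Tubb3, higher in each, and Kif5a, lower in each. The means after pIONT were 1.85 times those after sham surgery for Tubb3 and 0.912 times for Kif5a.

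Cytoplasmic dynein and dynactin carry cargo back to the cell body. Dync1i1, a neuronal intermediate chain of dynein, was the 1 gene of 3 that fell, with 40.3, 35.5 and 40.8 FPKM in the pIONT libraries and 47.3, 50.8 and 48.1 FPKM in the sham libraries (log2 fold change -0.32, SE 0.06, adjusted p = 0.0124), and this call was kept under every alternative. Dctn1, the large dynactin subunit, had 104, 88.7 and 96.8 FPKM in pIONT 1 to 3, against 103, 109 and 113 FPKM in sham 1 to 3 and was not called (log2 fold change -0.17, adjusted p = 0.106). The motor subunit Dync1h1 had 93.0, 83.0 and 86.5 FPKM in the pIONT libraries and 87.5, 88.8 and 95.7 FPKM in the sham libraries (log2 fold change -0.05, adjusted p = 0.561). The groups overlapped for Dctn1 and Dync1h1.

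Of the 8 genes of actin and its binding proteins 7 rose and none fell, and all 8 were higher in every pIONT library than in any sham library. Over all genes tested, 10.5% were called higher, and the groups were apart in 1 direction or the other in 43.4%. Flnc, filamin C, a cross-linker best known from muscle, was the lowest of the 8 and changed most, with 3.08, 3.38 and 1.98 FPKM in pIONT 1 to 3, against 0.648, 0.392 and 0.507 FPKM in sham 1 to 3 (log2 fold change 1.69, SE 0.18, adjusted p = 0.00179). The pseudocount of 0.5 understates the change of a gene this low, and the means differed 5.45-fold. Thymosins hold actin monomers in reserve. Tmsb10 had 600.0, 761 and 642 FPKM in the pIONT libraries and 366, 419 and 385 FPKM in the sham libraries (log2 fold change 0.77, SE 0.10, adjusted p = 0.0032). Tmsb4x, which immune cells also make in quantity, had 992, 1318 and 1086 FPKM in pIONT 1 to 3, against 734, 735 and 700.4 FPKM in sham 1 to 3 (log2 fold change 0.64, SE 0.10, adjusted p = 0.00705). Both thymosins were highest in pIONT 2. Cnn3, the calponin of non-muscle cells, had 124, 137 and 117 FPKM in the pIONT libraries and 89.5, 87.4 and 92.7 FPKM in the sham libraries (log2 fold change 0.48, SE 0.06, adjusted p = 0.00358).

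Of the actins themselves, Actg1 had 685, 678 and 619 FPKM in pIONT 1 to 3, against 477, 518 and 481 FPKM in sham 1 to 3 (log2 fold change 0.43, SE 0.06, adjusted p = 0.0049). Actb had 465, 514 and 441 FPKM in the pIONT libraries and 388, 383 and 403 FPKM in the sham libraries (log2 fold change 0.27, SE 0.06, adjusted p = 0.0256), and its call was lost without sham 1, sham 2, sham 3 or pIONT 1 (adjusted p = 0.0558 to 0.0801), and also without a filter on low values, with a replicate block or without both sham 1 and pIONT 2 (adjusted p = 0.0722 to 0.0854). Cfl1, cofilin, which severs actin filaments, rose as well (log2 fold change 0.24, adjusted p = 0.0149), a call lost without sham 1 or sham 3 (adjusted p = 0.0537 to 0.0593), and also without a filter on low values or without both sham 1 and pIONT 2 (adjusted p = 0.0555 to 0.0651). Pfn1, profilin, which feeds monomers to growing filaments, was not called (log2 fold change 0.23, adjusted p = 0.0629), but was called with median-of-ratios scaling (adjusted p = 0.0487). Muscle markers, which bear on Flnc, were low: the 4 of skeletal muscle summed to 1.34 to 2.92 FPKM after pIONT and 1.16 to 1.43 FPKM after sham surgery, and the 5 of smooth muscle and pericytes to 9.96 to 11.5 FPKM and 10.8 to 17.7 FPKM. Only 2 of the skeletal muscle markers and 3 of the smooth muscle and pericyte markers passed the filter and were tested. None of the tested markers was called, and the part of muscle cells in the value of Flnc was not tested.

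The last 60 coding bases of the actins are set out below with capitals at the bases that differ, because both genes are measured in the same ganglion and counted apart.
Actb: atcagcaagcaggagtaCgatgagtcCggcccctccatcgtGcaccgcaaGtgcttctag
Actg1: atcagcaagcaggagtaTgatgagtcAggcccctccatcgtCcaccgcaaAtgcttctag
They are 88.7% identical over 1128 coding bases, with 128 that differ. Of the 50-base windows, 14.2% in Actb and 56.7% in Actg1 occur in other genes, those of Actg1 mostly in the pseudogene Gm12715, and the level of Actg1 is the less certain. The shares for Tmsb10, Cfl1 and Cnn3 are 22.7%, 19.1% and 16.4%. Actg1 was the 1 gene of the 30 with a CArG box, the binding motif of serum response factor, which was found for 1.6% of all genes. Its promoter is shown for that reason, at chr11:120348543-120348745 on the minus strand (GRCm38.p6), 203 bases that end where the annotated gene begins. Capitals mark GC boxes, a CCAAT box and the CArG box, which starts 90 bases before the RefSeq start.
Actg1: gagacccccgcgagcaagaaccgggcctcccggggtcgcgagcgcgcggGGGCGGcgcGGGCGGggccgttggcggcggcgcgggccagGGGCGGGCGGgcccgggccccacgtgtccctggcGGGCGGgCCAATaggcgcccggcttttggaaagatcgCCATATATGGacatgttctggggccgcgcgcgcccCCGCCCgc

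Macrophage markers moved with the actin group, as 3 of 6 rose (Csf1r, Ctss and C1qa) and none fell. Over all genes tested 10.5% were called higher. The call of Csf1r was kept in 14 of 14 alternatives, that of Ctss in 11 and that of C1qa in 8. The summed level of the 6 markers ranged from 293.3 to 753.8 FPKM after pIONT and from 138.4 to 251.0 FPKM after sham surgery. Of the 5 satellite glia markers 2 rose, Glul and Cdh19, and the call of Cdh19 was kept in 5 of 14 alternatives. Their sums were 2778 to 3442 FPKM after pIONT and 2410 to 2602 FPKM after sham surgery, mostly from Apoe, which was not called (adjusted p = 0.074), and Kcnj10 and Fabp7 overlapped between the groups. The part of these cells in the actin group was not tested. Without sham 1 and pIONT 2, the calls of Tmsb10, Tmsb4x, Actg1, Flnc and Cnn3 were kept, and those of Actb and Cfl1 were lost (adjusted p = 0.0834 and 0.0651). The remaining libraries still differed in macrophage sum, with 330.1 and 293.3 FPKM in pIONT 1 and 3 against 138.4 and 170.9 FPKM in sham 2 and 3. This comparison therefore cannot separate the part of these cells.

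Related genes outside the 48 were counted in lists written from general knowledge, also with earlier results known. Over all genes tested 22.8% were called in either direction, and the share called in each list is given beside its counts. Of 39 other actin regulators 15 rose and 5 fell (51.3% called), with a median log2 fold change of 0.14. Cttn, cortactin, was at 69.4 ± 6.18 FPKM after pIONT and 42.4 ± 0.902 FPKM after sham surgery, log2 fold change 0.70, adjusted p = 0.000959. The filament bundler Fscn1 (log2 fold change 0.93, adjusted p = 0.00235) and the transgelin Tagln2 (log2 fold change 0.46, adjusted p = 0.00166) also rose. Of 16 other growth cone proteins 5 rose and 1 fell (37.5% called). Rtn4, which encodes the outgrowth inhibitor Nogo, was at 177 ± 1.47 FPKM after pIONT and 122 ± 1.31 FPKM after sham surgery, log2 fold change 0.54, adjusted p = 0.00022. Dbn1, drebrin, rose (log2 fold change 0.31, adjusted p = 0.00427), and Nrn1, neuritin, fell (log2 fold change -0.59, adjusted p = 0.00464).

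Of 7 other tubulins tested 2 rose and 1 fell (42.9% called). Tubb5, a β-tubulin of dividing and growing cells, was at 446 ± 17.8 FPKM after pIONT and 318 ± 20.4 FPKM after sham surgery, log2 fold change 0.49, adjusted p = 0.00315. Tubg2, a γ-tubulin of the kind that seeds microtubules, fell (log2 fold change -0.54, adjusted p = 0.00226). Tubb4a was called higher (log2 fold change 0.20, adjusted p = 0.0459), but in 5 of the 14 alternatives only. Of 16 genes that fold or modify tubulin 4 rose and 1 fell (31.2% called). Vash2, which removes the last tyrosine of α-tubulin (log2 fold change 0.73, adjusted p = 0.00133), Agtpbp1, which trims glutamates from tubulin (log2 fold change 0.60, adjusted p = 0.00175), and the deacetylase Hdac6 (log2 fold change 0.37, adjusted p = 0.00384) all rose.

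Of 23 other microtubule-associated and severing proteins 3 rose and 2 fell (21.7% called, close to the share over all genes). Map7d1 was at 166 ± 12.5 FPKM after pIONT and 93.9 ± 4.26 FPKM after sham surgery, log2 fold change 0.82, adjusted p = 0.00046, Dclk2 fell (log2 fold change -0.44, adjusted p = 0.00329) and the plus-end protein Mapre1 rose (log2 fold change 0.34, adjusted p = 0.00547). Of 20 other kinesins tested 3 rose and 5 fell (40.0% called). Kifap3, which links kinesin-2 to its cargo, was at 103 ± 3.29 FPKM after pIONT and 74.6 ± 0.289 FPKM after sham surgery, log2 fold change 0.46, adjusted p = 0.000633, the opposite direction to Kif3a of the same motor. Kifc2 (log2 fold change -0.53, adjusted p = 0.00383) and Kif26b (log2 fold change -0.32, adjusted p = 0.0165) fell, and the call of Kif26b was lost without sham 2, sham 3 or both sham 1 and pIONT 2 (highest adjusted p = 0.0764). Of 21 other dynein and dynactin subunits and adaptors 4 rose and 1 fell (23.8% called, again close to the share over all genes). The adaptor Bicd2 rose (log2 fold change 0.22, adjusted p = 0.00726). Dctn6 (log2 fold change 0.32, adjusted p = 0.0202) and Dctn4 (log2 fold change 0.19, adjusted p = 0.0203) also rose, but their calls were lost without sham 1, sham 3 or both sham 1 and pIONT 2, and that of Dctn4 also without pIONT 3 and with a replicate block (highest adjusted p = 0.108 and 0.107).

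Of 14 genes listed as cargo adaptors 1 rose and 3 fell (28.6% called). The synaptic vesicle protein Rab3a was at 126 ± 9.57 FPKM after pIONT and 176 ± 8.23 FPKM after sham surgery, log2 fold change -0.48, adjusted p = 0.00444. The kinesin adaptor Fez1 (log2 fold change -0.39, adjusted p = 0.00766) and Jph3 (log2 fold change -0.46, adjusted p = 0.00688) fell with it. Jph3 encodes a junctophilin, a membrane junction protein and not a cargo adaptor, but is counted in that share. Of 14 genes of the spectrin and ankyrin scaffold under the axon membrane 3 rose and 5 fell (57.1% called). Add2, an adducin that caps actin, was at 34.7 ± 0.869 FPKM after pIONT and 24.9 ± 0.832 FPKM after sham surgery, log2 fold change 0.47, adjusted p = 0.000803, Ank3, the ankyrin of the axon initial segment, rose (log2 fold change 0.34, adjusted p = 0.00413) and Ank1 fell (log2 fold change -0.51, adjusted p = 0.0062). Of 9 other intermediate filament genes tested 3 rose and none fell (33.3% called): Plec (log2 fold change 0.16, adjusted p = 0.0329), Lmna (log2 fold change 0.33, adjusted p = 0.0347) and Vim (log2 fold change 0.46, adjusted p = 0.0458). Their calls were kept in 6, 7 and 5 of 14 alternatives, and each was lost without sham 1, sham 2, sham 3 or pIONT 1 (highest adjusted p = 0.105, 0.098 and 0.13).

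At 6 hours after UCN1, 1 of the 48 genes rose, 1 fell and 46 were not called. Over all genes tested 0.304% were called higher and 0.297% lower. At an unadjusted p below 0.05 there were 6 of the 48 genes (12.5%), against 13.1% of all genes. The median log2 fold change of the 48 genes was 0.05, against -0.01 over all genes, and 43 of them lay within 0.25 of 0. Tmsb10 rose, with 316 and 313 FPKM in the UCN1 libraries, against 213 and 228 FPKM in the PBS libraries (log2 fold change 0.51, SE 0.08, adjusted p = 0.0462). Kif19a fell, with 49.2 and 60.6 FPKM in the UCN1 libraries, against 88.7 and 87.6 FPKM in the PBS libraries (log2 fold change -0.69, SE 0.11, adjusted p = 0.0479). In both genes the libraries of the groups were apart, as they were in 45.5% of all genes tested. Leaving out any of the 4 libraries ended both calls, with an adjusted p of 0.242 (without PBS 2) to 0.524 (without UCN1 2) for Tmsb10 and 0.266 (without UCN1 1) to 0.35 (without UCN1 2) for Kif19a. With 2 libraries a group, each such fit assumes that the lone library varies like the others.

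The pituitary markers differed sharply between these groups, with 3 of 3 lower after UCN1. The call of Gh was kept in 11 of 11 alternatives, and those of Prl and Pomc in 6 of 11. The calls of Prl and Pomc were lost without a filter on low values and with any library left out. The sums of the 3 markers were 7.30 and 8.29 FPKM in the UCN1 libraries, against 120.6 and 120.2 FPKM in the PBS libraries, mostly from the hormone gene Gh. The part of that tissue in the change of Tmsb10 or Kif19a was not tested. The sums of the 8 neuron markers were close, with 3591 and 3789 FPKM after UCN1 and 3602 and 3667 FPKM after PBS. Macrophage markers summed to 77.6 and 84.5 FPKM after UCN1 and 97.7 and 86.1 FPKM after PBS, and none of the 6 was called. Satellite glia markers summed to 4338 and 4522 FPKM after UCN1 and 4044 and 3812 FPKM after PBS. Of these 5 markers 4 (Fabp7, Kcnj10, Cdh19 and Apoe) were higher in both UCN1 libraries than in both PBS libraries and Glul was lower in both, while the groups were apart in 45.5% of all genes tested. None of the 5 markers was called, and their median log2 fold change was 0.27. Their part in the changes of Tmsb10 or Gfap, the glial gene called after UCN1, was not tested.

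**Figure D4:**
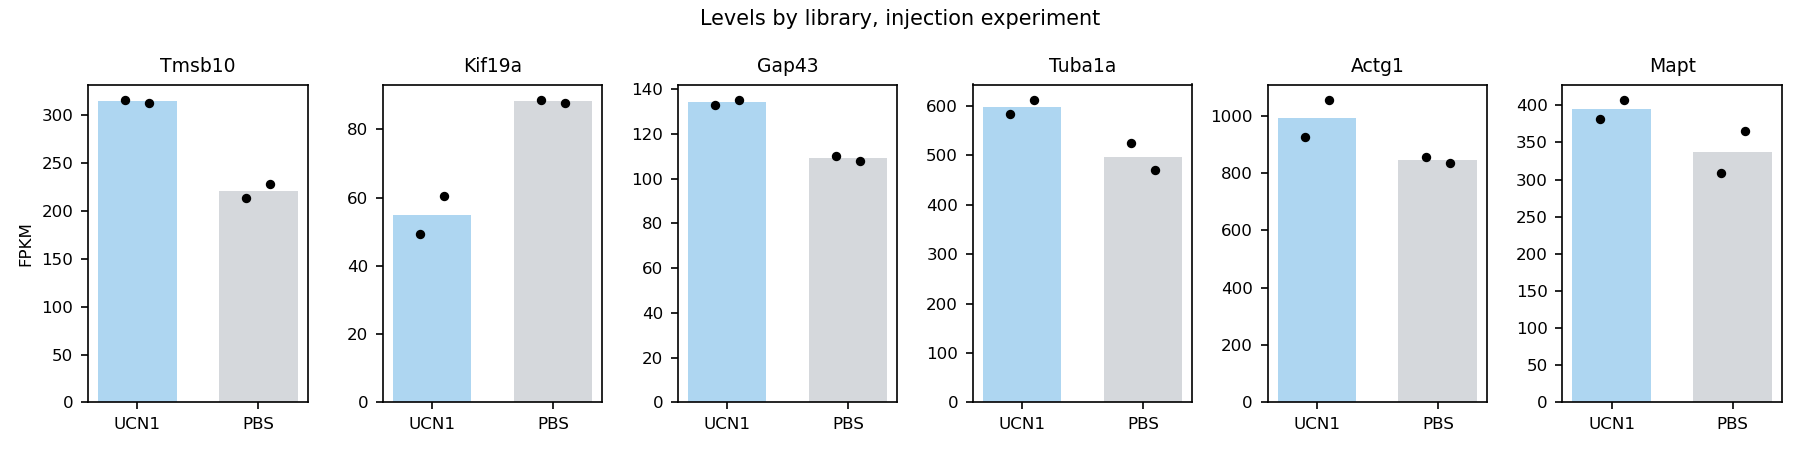
FPKM (vertical axes, from 0) of the 6 genes with an unadjusted p below 0.05 in the injection experiment, with bars for the mean of 2 libraries per group and points for single libraries. Tmsb10 and Kif19a passed the adjusted threshold, while Gap43, Tuba1a, Actg1 and Mapt did not.

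The other 4 genes with an unadjusted p below 0.05 were higher after UCN1 and failed the correction. Gap43 had 133 and 135 FPKM in the UCN1 libraries, against 110.3 and 108 FPKM in the PBS libraries (log2 fold change 0.30, SE 0.08, adjusted p = 0.187). Tuba1a had 583 and 613 FPKM in the UCN1 libraries, against 525 and 469.6 FPKM in the PBS libraries (log2 fold change 0.27, SE 0.09, adjusted p = 0.265). Actg1 had 925 and 1055 FPKM in the UCN1 libraries, against 855 and 836 FPKM in the PBS libraries (log2 fold change 0.22, SE 0.09, adjusted p = 0.345). Mapt had 381 and 408 FPKM in the UCN1 libraries, against 309 and 366 FPKM in the PBS libraries (log2 fold change 0.23, SE 0.10, adjusted p = 0.38). In each of the 4 both UCN1 libraries were above both PBS libraries. With 2 libraries a group, the groups were apart in 1 direction or the other in 45.5% of all genes tested. All 8 tubulins had values above 0, between 0.06 and 0.27, and none was called. The sum of the 7 β-tubulins that passed the filter was 2620 ± 157 FPKM after UCN1 and 2409 ± 15.5 FPKM after PBS (SD, n = 2 each). Within it Tubb3 held 41.7% after UCN1 and 40.8% after PBS, and Tubb6 held 0.462% and 0.424%.

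Stmn2 and Stmn4, which rose after pIONT, had log2 fold changes of 0.00 and -0.00 after UCN1 (adjusted p = 0.995 and 0.993), with overlapping groups. Their 95% confidence intervals ran from -0.25 to 0.26 and from -0.23 to 0.22. Tubb6 had 11.2 and 13.0 FPKM in the UCN1 libraries, against 10.8 and 9.62 FPKM in the PBS libraries (log2 fold change 0.23, SE 0.14, adjusted p = 0.51). The interval of Tubb6, from -0.09 to 0.55, lies below its value after pIONT. Of the kinesins other than Kif19a, none was called and their values lay between -0.13 and 0.04. The neurofilament triplet summed to 3952 ± 113 FPKM after UCN1 and 3877 ± 296 FPKM after PBS. Of the related lists 1 gene was called: Gfap, the filament protein of reactive glia, was at 7.10 ± 0.41 FPKM after UCN1 and 1.99 ± 0.90 FPKM after PBS (log2 fold change 1.66, adjusted p = 0.0462). The call of Gfap was kept in 6 of 11 alternatives, each with all 4 libraries. It was lost without a filter on low values and with any library left out.

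Side by side, with separate controls in the experiments, 33 of the 48 genes (68.8%) had values of the same sign after pIONT and after UCN1, as did 51.2% of the 13833 genes tested in both. Of the 22 genes that rose after pIONT, 18 were above 0 after UCN1, with a median of 0.12. Of the 11 that fell after pIONT, 5 were below 0 after UCN1, with a median of 0.01. Tmsb10 and Kif19a were called in the same direction in both experiments, with log2 fold changes of 0.77 and -0.46 after pIONT and 0.51 and -0.69 after UCN1. The experiments differed in agent, time and annotation, and the difference between them was not tested.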

How the data were processed

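Gene expression was measured by RNA sequencing of mouse trigeminal ganglion in 10 libraries (3 pIONT, 3 sham, 2 UCN1 and 2 PBS). Per the labels' protocols, total RNA was isolated with TRIzol reagent and made into libraries with a kit of the NEBNext Ultra II line. The authors deposited 1 table of FPKM per experiment. Per the submitters' processing notes, STAR, HTSeq, DESeq2 and the build GRCm39 were used, with no versions or settings. No column of other samples was present (0 left out). The coordinates of the injection table match GENCODE vM21 (GRCm38) for 99.42% of identifiers and those of the surgery table for 1.96%, so positions are given from GRCm38. Symbols came from that annotation by identifier.

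Low FPKM values were whole multiples of the value of 1 read (tolerance 0.1 reads, up to 20 reads) for 92.4% to 99.0% of values, which gave the depths. For this, gene length was taken as the union of exons in the surgery table and as the mean transcript length in the injection table. No comparison with the other definition is given for either table. Genes with a mean of at least 0.5 FPKM were tested within a table on the log2(FPKM + 0.5) scale, two-sided, with limma 3.58.1 (R 4.3.3), with a mean-variance trend, no covariate and Benjamini-Hochberg adjustment at 0.05. The test was tested on simulated data first. The 48 genes, the related lists and the markers were chosen with earlier results of these data known. Values per library are given for genes called after injection, for the 14 largest called changes after surgery and for up to 2 further genes of each role with the highest level. From each related list up to 3 called genes with the smallest p are named. The alternatives were other pseudocounts, filters and scalings, each library left out, and a replicate block. The labels do not say that libraries came from separate animals, so the p-values reflect the spread among these samples only, and that spread may be technical. Replicate libraries differed from each other by more than sampling noise (chi-square per degree of freedom 6.24 to 16.2 over genes), and none was treated as a duplicate. Precision is limited by the number of libraries. Shared windows, coding bases and promoter motifs were computed with Python 3.11.15 from GENCODE and RefSeq sequences.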

Additional observations from a re-analysis of the deposited data

How the results depend on the processing

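Over the alternatives tried, 19 of the 33 calls after pIONT were kept throughout and 14 were lost in at least 1. No call changed its direction. The count of genes that rose, 22, lay between 16 and 20 when a library was left out, and the count that fell, 11, between 4 and 11 (4 without sham 3, 6 without sham 2, 7 without sham 1). Without a filter on low values 5 fell, and 7 fell without both sham 1 and pIONT 2, an alternative added after seeing the data. All called genes numbered 3344, and 1669 to 2978 with a library left out (2061 without sham 2, 1669 without sham 3) and 1660 without both of those libraries. In the surgery experiment, deviations from group means correlated at -0.055, -0.202 and 0.068 for libraries with the same replicate number. For libraries with other numbers they correlated at -0.206 to 0.231. In the injection experiment the values were 0.039 and -0.039, which with 2 libraries a group are a single value with its sign turned. These correlations cannot decide if replicate numbers pair the libraries. With a replicate block 18 genes rose and 6 fell after pIONT and 2085 genes were called, and after UCN1 1 rose, 1 fell and 260 genes were called. Values near 0 that were never called changed sign for Stmn3 (-0.0276 with TPM scaling, -0.0247 to 0.0434 with a library left out), Kif5c (0.00896 with median-of-ratios scaling, 0.0325 without sham 1 and pIONT 2, -0.0296 to 0.0235 with a library left out) and Mapt (0.000964 without sham 1 and pIONT 2, -0.0662 to 0.00284 with a library left out). After UCN1 they did so for Stmn2 (-0.0267 with TPM scaling, -0.127 to 0.132 with a library left out) and Stmn4 (0.00918 with median-of-ratios scaling, -0.0117 to 0.00539 with a library left out). The 1 rise and the 1 fall after UCN1 both became 0 without a filter and with any library left out (0 to 0). The rise became 0 with TPM scaling and the fall became 0 with a pseudocount of 0.1. All called genes then numbered 2 without a filter, 155 with a mean of at least 2 FPKM and 2 to 13 with a library left out, against 97. The cause of these shifts was not tested. With 2 libraries a group the median SE was 0.089 on the log2 scale, which limits what could be called after UCN1, and Dcx and Flnc rest on few reads. Exons that overlap on opposite strands and shared sequence limit the values of single tubulins and Actg1.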
